A study of Mus musculus with 8 samples.

Results

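The genes described here are 48 that encode structural and regulatory proteins of the sarcomere, the Z-disc and the M-band, together with proteins bound to titin. They were chosen as a fixed list of gene names and not by a measured value, though with earlier results of these data known. All 48 were among the 21207 symbols named in the files of all 8 libraries. The 8 libraries hold RNA of single nuclei from the gastrocnemius, a calf muscle, of C57BL/6 mice labelled wild type. Old mice were 20 months and Young mice 3 months of age, Running mice were trained on a treadmill for 2 months from 11 months of age, and Sedentary mice were 11 months of age at the start and were not trained. Each of the 4 groups had 2 libraries, replicate 1 made with 10x Genomics droplets and replicate 2 with another droplet system, called the second library set below. Each group thus had 1 library in each set, and the library set was a term (a block) in every fit, while no animal is known to link the libraries of a set. Whether the 2 libraries of a group came from separate animals, how many animals were pooled and the sex of the mice are not stated in the sources used here, so p-values measure only the spread between these libraries, which may be technical.

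A sarcomere is the contractile unit of a myofibril. Actin filaments, stabilised by tropomyosins and by nebulin, are anchored at the Z-disc by alpha-actinin and slide past myosin filaments, which are held together at the M-band by myomesins. Titin runs from the Z-disc to the M-band as an elastic filament, and several of its partners are muscle ankyrin repeat proteins, proteases or ubiquitin ligases. In mouse gastrocnemius most fibres are fast and make the heavy chains Myh4 or Myh1, fewer make Myh2, and slow fibres make Myh7.

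The matrices held 65280 nuclei, of which 64803 were retained, with 23327640 to 44389777 unique molecular identifiers (UMIs, each standing for 1 captured RNA molecule) per 10x library and 4765224 to 9088163 per library of the second set. Pairs of 10x libraries shared 30 to 46 barcode names, while the second set used running numbers. Myofibre-like nuclei, named from markers such as Ckm, Ryr1 and Trdn, were the largest named class in every library. In Old replicate 2, 3150 of 4772 nuclei fell in no named class, and only 1357 were myofibre-like, against 3310 to 7392 in the other libraries. Unnamed nuclei were also 25.7% of Sedentary replicate 1 and 21.5% of Young replicate 2. They include a 10x cluster led by Prlr (1877 nuclei) and a second-set cluster led by Myl3 and Mb (1236 nuclei). Myofibre markers there stood at 1.22 and 1.59 times the level of the set, so myofibre-like sums do not hold all muscle nuclei. In Sedentary replicate 1, 1551 of 3610 Myh4-dominant nuclei lay in a cluster led by Ryr3, Gm13490 and Mss51. The female-specific RNA Xist was detected in all 8 libraries, at 791 to 1166 UPM (UMIs per 1000000 UMIs) in the 10x set, where the Y-linked Ddx3y stayed at or under 0.3, and at 229 to 594 in the second set, where Ddx3y read 34.7 to 76.4. Library set and the sex of the RNA therefore cannot be told apart.

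Promoters are shown for 6 members whose levels are described below, Acta1 for the thin filament and training, Mybpc2 and Mylk4 for Myh4-dominant nuclei, Myoz2 for slow nuclei, and Ankrd1 and Xirp2 for the myotendinous junction. Sequences are from RefSeq on GRCm38.p6, 250 bases before the start site of each gene, printed 5′ to 3′ on the strand of the gene. Capitals mark a CArG box (bound by SRF), a MEF2 box or an MCAT element, CATTCC on either strand (bound by TEAD). The windows are chr8:123894776-123895025 for Acta1, chr7:44524670-44524919 for Mybpc2, chr13:32783965-32784214 for Mylk4, chr3:123034988-123035237 for Myoz2 and chr19:36119845-36120094 for Ankrd1, all on the minus strand, and chr2:67445752-67446001 for Xirp2 on the plus strand.
Acta1: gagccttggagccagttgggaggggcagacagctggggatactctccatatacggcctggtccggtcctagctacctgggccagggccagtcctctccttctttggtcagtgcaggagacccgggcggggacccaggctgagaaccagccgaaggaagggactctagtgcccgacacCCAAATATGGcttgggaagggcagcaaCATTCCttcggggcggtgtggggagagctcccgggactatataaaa
Mybpc2: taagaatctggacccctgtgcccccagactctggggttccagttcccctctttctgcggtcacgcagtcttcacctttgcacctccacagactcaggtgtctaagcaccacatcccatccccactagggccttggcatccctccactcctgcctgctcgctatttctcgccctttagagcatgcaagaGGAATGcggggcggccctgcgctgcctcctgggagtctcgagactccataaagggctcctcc
Mylk4: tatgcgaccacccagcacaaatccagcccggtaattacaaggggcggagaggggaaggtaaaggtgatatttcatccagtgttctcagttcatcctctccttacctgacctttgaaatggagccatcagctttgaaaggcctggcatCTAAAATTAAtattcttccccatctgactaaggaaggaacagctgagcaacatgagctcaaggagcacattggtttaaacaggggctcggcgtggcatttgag
Myoz2: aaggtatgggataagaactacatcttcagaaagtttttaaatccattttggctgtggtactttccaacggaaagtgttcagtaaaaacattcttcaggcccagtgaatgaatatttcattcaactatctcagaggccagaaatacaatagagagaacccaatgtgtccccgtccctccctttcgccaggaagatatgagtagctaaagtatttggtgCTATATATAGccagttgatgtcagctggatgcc
Ankrd1: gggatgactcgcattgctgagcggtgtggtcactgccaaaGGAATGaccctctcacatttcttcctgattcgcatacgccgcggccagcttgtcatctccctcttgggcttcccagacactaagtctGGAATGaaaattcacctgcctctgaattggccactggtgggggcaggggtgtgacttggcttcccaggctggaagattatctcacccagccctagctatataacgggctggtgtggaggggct
Xirp2: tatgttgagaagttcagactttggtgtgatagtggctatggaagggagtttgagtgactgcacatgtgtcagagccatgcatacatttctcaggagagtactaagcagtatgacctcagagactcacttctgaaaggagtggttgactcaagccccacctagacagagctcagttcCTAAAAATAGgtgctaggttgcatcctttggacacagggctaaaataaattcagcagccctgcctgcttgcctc

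Counted from the start site, the CArG box of Acta1 began at -73 and its MCAT element at -46, while the MCAT element of Mybpc2 began at -62. The MEF2 boxes began at -103 in Mylk4, -33 in Myoz2 and -74 in Xirp2, and Ankrd1 held MCAT elements at -210 and -123. Of the 48 members 37 had an entry in the promoter table, with 48 windows of 300 bases in all. Several, among them Tpm3, Nebl, Ldb3 and Flnc, have more than 1 window, and their isoforms are not separated in the counts. A CArG box was in 6 of these windows (12.5%), of 5 members, against 1.63% of the 32851 windows of all genes. A MEF2 box was in 8 (16.7%), of 7 members, against 3.19%. An MCAT element was in 14 (29.2%), of 12 members, against 14.7%. An E-box, CANNTG, was in 39 (81.2%), of 33 members, against 72.3%. The windows of Ldb3 overlap and hold the same CArG box, and those of Flnc overlap and hold the same MCAT element. A match is a description of these letters and not a bound site.

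The 48 genes took between 6.31% and 7.84% of the UMIs of the 10x libraries, and 6.48% to 6.73% of those of the Young, Running and Sedentary libraries of the second set, where Old had 3.49%. Levels are given as UPM of a library, or of a class of nuclei within a library, with mitochondrial and ribosomal protein genes left out. In bulk sums over a library, fewer nuclei of a type and less RNA per nucleus cannot be told apart. The share was lowest in Old replicate 2, where it was also lowest among myofibre-like nuclei (4.46%, against 6.47% to 6.81% in the other second-set libraries and 8.64% to 9.71% in the 10x set). Titin alone supplied 52.2% to 58.7% of the UMIs of the 48 genes among 10x libraries and 29.4% to 32.6% in the second set.

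Among thin filament genes Neb (chr2:52136647-52378474, minus strand), which encodes nebulin, had the most UMIs. Its level in the 10x set was 6937 in Old and 7888 in Young, 8854 in Running and 6507 in Sedentary, and in the second set 2436 in Old and 5655 in Young, 5815 in Running and 6365 in Sedentary. Acta1 (chr8:123891769-123894751, minus strand) encodes skeletal alpha-actin. It read 868 in Old and 1060.2 in Young, 1572 in Running and 315 in Sedentary among 10x libraries and 1950.4 in Old and 3332 in Young, 4128 in Running and 2306 in Sedentary in the second set. Sedentary was lowest of the 10x libraries for Acta1, and every second-set library lay above every 10x library. Per kilobase of gene the order of both genes turned, since Acta1 spans 2.98 kb and Neb 242 kb: the median per kilobase was 323 for Acta1 and 30.7 for Neb among 10x libraries, and 945 and 23.7 in the second set. Tpm1, a fast fibre tropomyosin gene, ranged from 2047 to 3097 UPM among 10x libraries and from 3033 to 7294 in the second. The cardiac actin gene Actc1 read 1.57 in Old and 45.7 in Young, 28.4 in Running and 1.21 in Sedentary among 10x libraries, and 30.7 in Old and 39.8 in Young, 32.1 in Running and 26.4 in Sedentary in the second, so that in the 10x set Young and Running stood apart from Old and Sedentary. The remaining thin filament genes, Tpm2, Tpm3, the tropomodulins Tmod1 and Tmod4, the leiomodulins Lmod2 and Lmod3 and the nebulin relative Nebl, lay between 6.41 and 882 UPM.

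The thick filament and M-band gene with the most UMIs was Mylk4 (chr13:32700834-32783954, minus strand), which encodes a myosin light chain kinase. It read 4925 in Old and 2892 in Young, 2328 in Running and 5788 in Sedentary among 10x libraries and 1869.7 in Old and 3928 in Young, 4556 in Running and 5294 in Sedentary in the second set. In the 10x set Old and Sedentary were above Young and Running, an order that the second set did not share. Mybpc1, the slow-type myosin-binding protein C gene, read 1067 in Old and 801 in Young, 1096 in Running and 3437 in Sedentary and then 1278 in Old and 4063 in Young, 1412 in Running and 1797 in Sedentary in the 2 sets in that order. Its highest 10x library was Sedentary and its highest second-set library was Young. Myom1 and Myom2, which encode myomesins, ranged from 887 to 1247 and from 401 to 487 in the 10x set. The myosin chaperone gene Unc45b and the methyltransferase gene Smyd1, both needed for thick filament assembly, ranged from 164 to 348 and from 200.3 to 269 there. The others of this group were the fast myosin-binding protein C gene Mybpc2 and its relative Mybph, the myomesin gene Myom3, the obscurin-like gene Obsl1 and the light chain kinase gene Mylk2, which together spanned 4.69 to 894 among 10x libraries and 17.8 to 1601 in the second.

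Ttn (chr2:76703980-76982547, minus strand), the titin gene, read 34959 in Old and 32936 in Young, 46025 in Running and 42114 in Sedentary among 10x libraries and 10771 in Old and 19801 in Young, 20216 in Running and 21136 in Sedentary in the second set. No second-set library reached the lowest 10x library. Tcap, which encodes the Z-disc cap of titin and spans only 1.14 kb, read 300.5 in Old and 96.8 in Young, 334 in Running and 252 in Sedentary among 10x libraries and 1780.3 in Old and 2856 in Young, 1883 in Running and 861 in Sedentary in the second set, where every library was above every 10x library. Among the titin-bound ankyrin repeat genes, Ankrd1 stayed at 3.07 to 8.54 among 10x libraries and 11.4 to 25.8 in the second. Cmya5, the myospryn gene, ranged from 1299.7 to 1772 and from 1194 to 2177. The calpain gene Capn3 and the ubiquitin ligase gene Trim54 lay between 162 and 277 and between 160.3 and 195 in the 10x set. Ankrd2 was the member of this group with the widest spread in the 10x set, at 144 in Old and 2.94 in Young, 6.33 in Running and 58.0 in Sedentary, and its second-set levels were 72.0 in Old and 133 in Young, 58.4 in Running and 50.8 in Sedentary.

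Of the Z-disc genes Ldb3 (chr14:34526603-34588682, minus strand), which encodes a PDZ and LIM protein that binds alpha-actinin, had the most UMIs, with 1342 in Old and 1757 in Young, 1662 in Running and 1643 in Sedentary among 10x libraries and 970.4 in Old and 1521 in Young, 1942 in Running and 1968 in Sedentary in the second set. Old was lowest in both sets. Myot, the myotilin gene, ranged from 559 to 894 among 10x libraries and from 368 to 775 in the second, where Old was also lowest. Des, the desmin gene, ranged from 133 to 201 and from 357 to 772. The remaining Z-disc genes fell in 3 kinds: alpha-actinins (Actn2, Actn3) at 116 to 852 in the 10x set, myozenins (Myoz1, Myoz2, Myoz3) at 2.81 to 623, and LIM domain or cytoskeletal proteins (Pdlim3, Pdlim5, Csrp3, Flnc, Synpo2l, Ky) at 1.56 to 852. Among the genes of attachment sites, Xirp2 (chr2:67446002-67526614, plus strand), which encodes a Xin repeat protein, read 1015 in Old and 863 in Young, 799.9 in Running and 863 in Sedentary among 10x libraries and 947 in Old and 1651 in Young, 1056 in Running and 1107 in Sedentary in the second set. Its relative Xirp1 stayed at 3.56 to 10.6 among 10x libraries and 2.42 to 5.84 in the second.

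**Figure D1:**
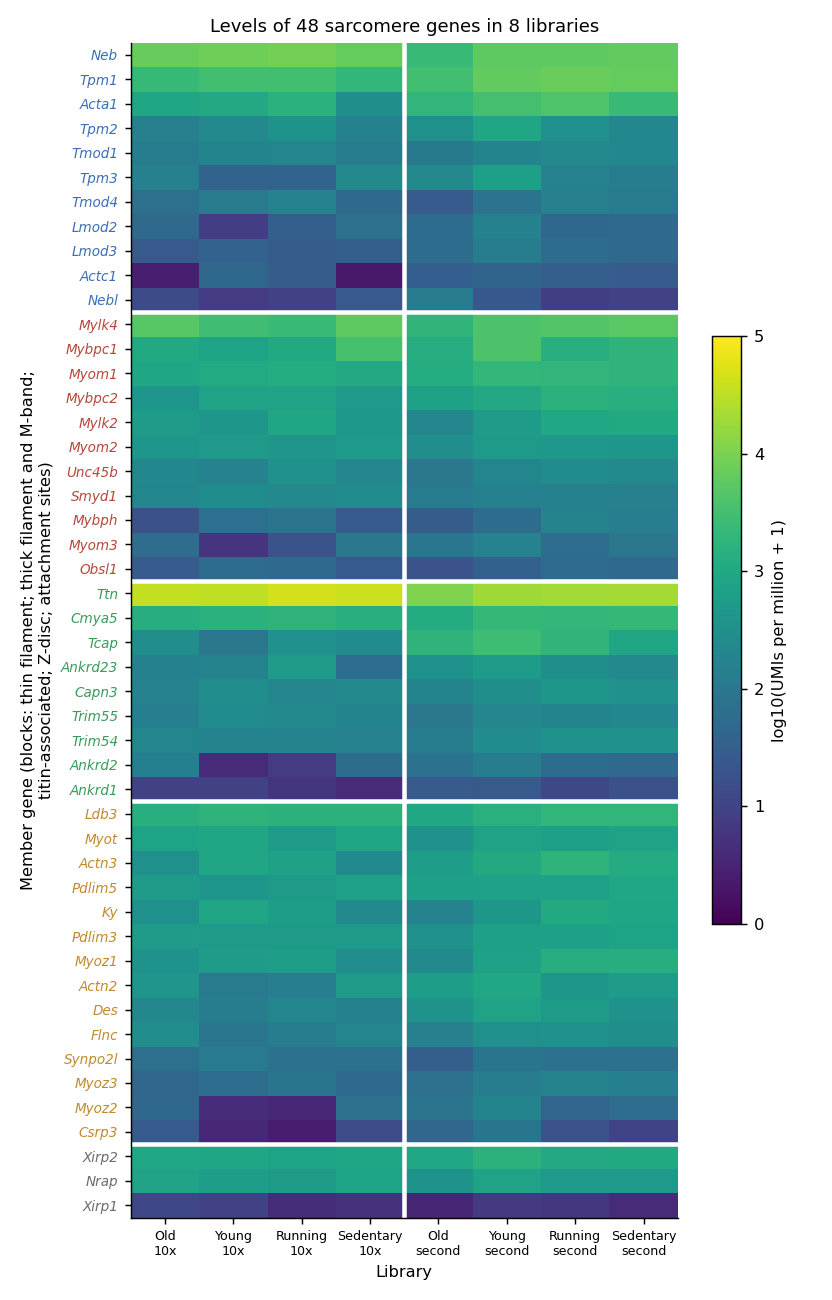
UPM (log colour scale) of the 48 genes in each of the 8 libraries, ordered by role, with the 10x set and the second library set marked apart. Ttn ranged from 32936 to 46025 among 10x libraries and from 10771 to 21136 in the second set, and Nebl, Xirp1 and Ankrd1 were among the lowest.

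Some members stood apart between the 2 library sets whatever the group. Acta1, Lmod3, Tcap, Ankrd1 and Des (5 of 48, 10.4%) were higher in every second-set library than in any 10x library, and Neb, Ttn and Smyd1 (3 of 48, 6.25%) were lower in every one, against 10.3% and 10.3% of all genes with a UMI in the 2 directions. The other 40 overlapped. The 5 genes that were higher spanned a median of 8.14 kb, and the 3 that were lower 241.8 kb. In the mean log2 level, second set minus 10x set, Tcap and Acta1, both short, were highest at 2.87 and 1.76. Ttn, with a span of 279 kb, was lowest at -1.15. Over the 48 genes, which share the same 8 libraries and are not independent, the log2 difference between sets went with log10 gene span at a Pearson's r of -0.53 and a Spearman's rho of -0.45. These are descriptions with no test. Whether intronic reads were counted in each set is not stated in the sources used here.

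**Figure D2:**
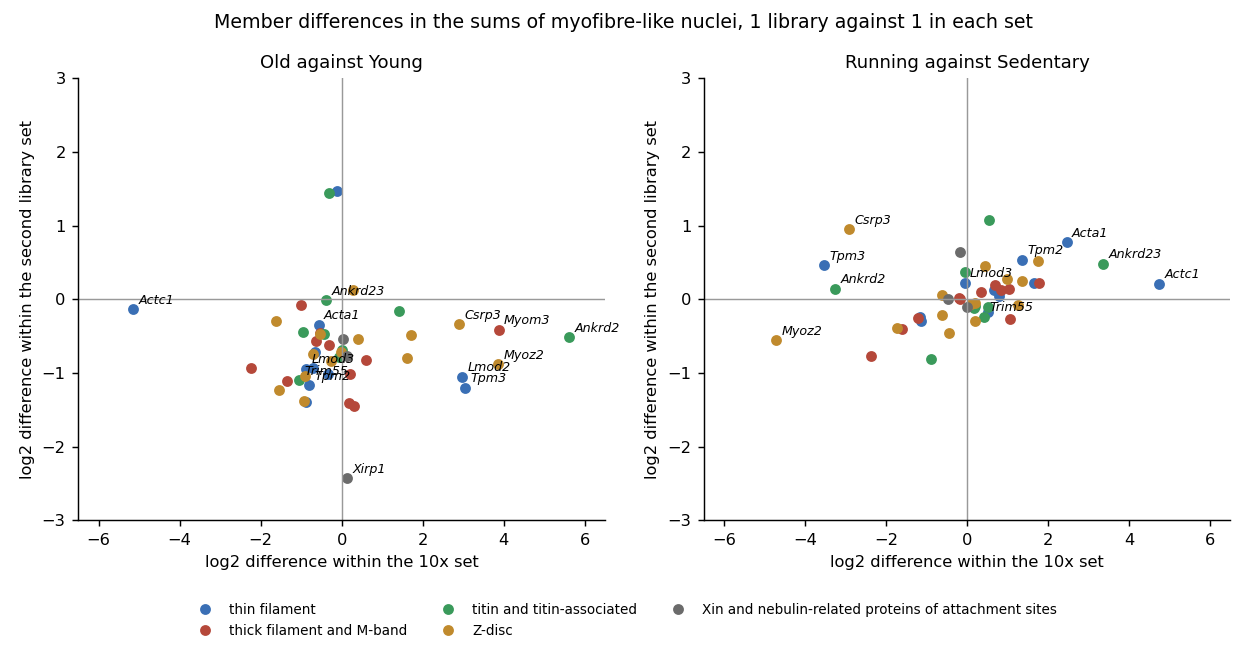
Log2 differences of the 48 genes in sums of myofibre-like nuclei, within the 10x set (horizontal axis) and within the second library set (vertical axis). Panels show Old against Young and Running against Sedentary. In Old against Young the median over the 48 genes was -0.32 within the 10x set and -0.73 within the second.

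Myofibre-like nuclei were divided by the myosin heavy chain that led their cluster, and clusters were made and named without the 48 genes. Class levels share their nuclei and libraries with the clustering, so they are given as a description with no test. In the second set Myh4 led in all myofibre-like clusters, so Myh1-, Myh2- and Myh7-dominant classes exist in the 10x set only, and the Myh4-dominant class of the second set is all of its myofibre-like nuclei, with a cluster led by Myh7b and Myh7 and one led in part by Myh2 among them. Myh7-dominant nuclei reached 20 per library in Old (147) and Sedentary (382). Orders are given over the fast, slow and junction classes with at least 20 nuclei in a library.

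Slow, Myh7-dominant nuclei were the class in which the slow isoforms of several proteins stood highest. Tpm3, the slow tropomyosin gene, read 4837 in Old and 4005 in Sedentary there, against 15.5 to 36.1 in Myh4-dominant, 13.6 to 41.8 in Myh1-dominant and 17.0 to 41.3 in Myh2-dominant nuclei. Myoz2, the slow calsarcin gene of the Z-disc, read 778 in Old and 596 in Sedentary. In Myh2-dominant nuclei it read 323 in Old and 259 in Young, 34.0 in Running and 254 in Sedentary, and in Myh4-dominant nuclei at most 7.90. Myom3, the third myomesin gene, read 579 in Old and 482 in Sedentary, next to 487 in Old and 207 in Young, 260.2 in Running and 363 in Sedentary in Myh2-dominant nuclei and 1.26 to 21.2 in Myh4-dominant nuclei. In both libraries 10 of 48 members were highest in Myh7-dominant nuclei (Acta1, Tpm2, Tpm3, Lmod2, Lmod3, Myom3, Trim55, Actn2, Myoz2 and Pdlim5), against 8.79% of all genes. Another 7 were lowest there (Tpm1, Tmod1, Mybph, Myom2, Myoz1, Myoz3 and Ky), against 2.98% of all genes. Tpm1 and Tpm3 stood in opposite order, with Tpm1 at 535 in Old and 427 in Sedentary in Myh7-dominant nuclei and 2965 to 4296 in Myh4-dominant nuclei. The myozenin genes did likewise, since Myoz1 read 80.1 in Old and 94.2 in Sedentary in the slow class and 401 to 851 in the Myh4-dominant class.

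Myh2-dominant nuclei, the fast oxidative class, were marked by Myom3, Ankrd2 and Myoz2. Ankrd2, a titin-bound ankyrin repeat gene, read 1224 in Old and 171 in Young, 91.0 in Running and 235 in Sedentary there and 0.210 to 10.1 in Myh4-dominant nuclei. Csrp3, which encodes the muscle LIM protein, was the only member highest in Myh2-dominant nuclei in all 4 10x libraries (0.971% of all genes), with 169.6 in Old and 134 in Young, 26.1 in Running and 55.9 in Sedentary. Mylk2 and Actn3 were lowest there in all 4, against 0.426% of all genes. Mybpc1 read 6449 in Old and 7559 in Young, 4693 in Running and 7587 in Sedentary in Myh2-dominant and 3527 in Old and 4265 in Young, 3072 in Running and 4298 in Sedentary in Myh1-dominant nuclei. In Myh4-dominant nuclei it read 255 in Old and 695 in Young, 658 in Running and 3201 in Sedentary and was highest in Sedentary, the library in which 43.0% of those nuclei lay in the cluster led by Ryr3.

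No member was highest in Myh1-dominant nuclei, the fast intermediate class, in all 4 libraries, and none was lowest (0.346% and 0.0284% of all genes). The 3 members with the largest ratio to the other classes were Mybpc1, Mylk4 and Tpm2. Mylk4 read 4238 in Old and 3354 in Young, 2912 in Running and 5012 in Sedentary there, and Tpm2, the beta-tropomyosin gene, 390.1 in Old and 569 in Young, 543 in Running and 217 in Sedentary. Tpm2 in Myh2-dominant nuclei was 586 in Old and 914 in Young, 572 in Running and 307 in Sedentary. Myh2-dominant nuclei exceeded Myh1-dominant ones for Tpm2 in every 10x library, and the Myh7-dominant levels of Old and Sedentary (709 and 387) were higher again.

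In the 10x set Myh4-dominant nuclei are the fast glycolytic class. Mybpc2, Actn3 and Mylk4 were highest in the Myh4-dominant class in all 8 libraries (3 of 48 members, against 0.474% of all genes). In the second set, however, that class was all myofibre-like nuclei and the only classes to compare with were the 2 junction classes. In Old replicate 2, with 17 neuromuscular nuclei, it was the myotendinous junction alone. Mybpc2, which encodes the fast myosin-binding protein C, read 807 in Old and 1106 in Young, 1100.4 in Running and 817 in Sedentary in the 10x set, against 65.2 to 156 in Myh2-dominant nuclei. In the second set it read 1056 in Old and 969.8 in Young, 1633 in Running and 1378 in Sedentary. Actn3, the alpha-actinin gene of fast fibres, read 583 in Old and 1223 in Young, 1069 in Running and 378 in Sedentary in the 10x set, against 57.0 to 178 in Myh2-dominant nuclei. The other alpha-actinin gene, Actn2, had the opposite order, with 35.3 to 181 in Myh4-dominant and 969.9 to 2579.7 in Myh2-dominant nuclei. Mylk4 read 9073 in Old and 4103 in Young, 3062 in Running and 9167 in Sedentary in Myh4-dominant nuclei, against 904 to 2072 in Myh2-dominant ones. For Ttn the classes overlapped in the 10x set, with 46132 to 58578 in Myh4-dominant nuclei and 31898 to 50691 in Myh2-dominant nuclei.

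**Figure D3:**
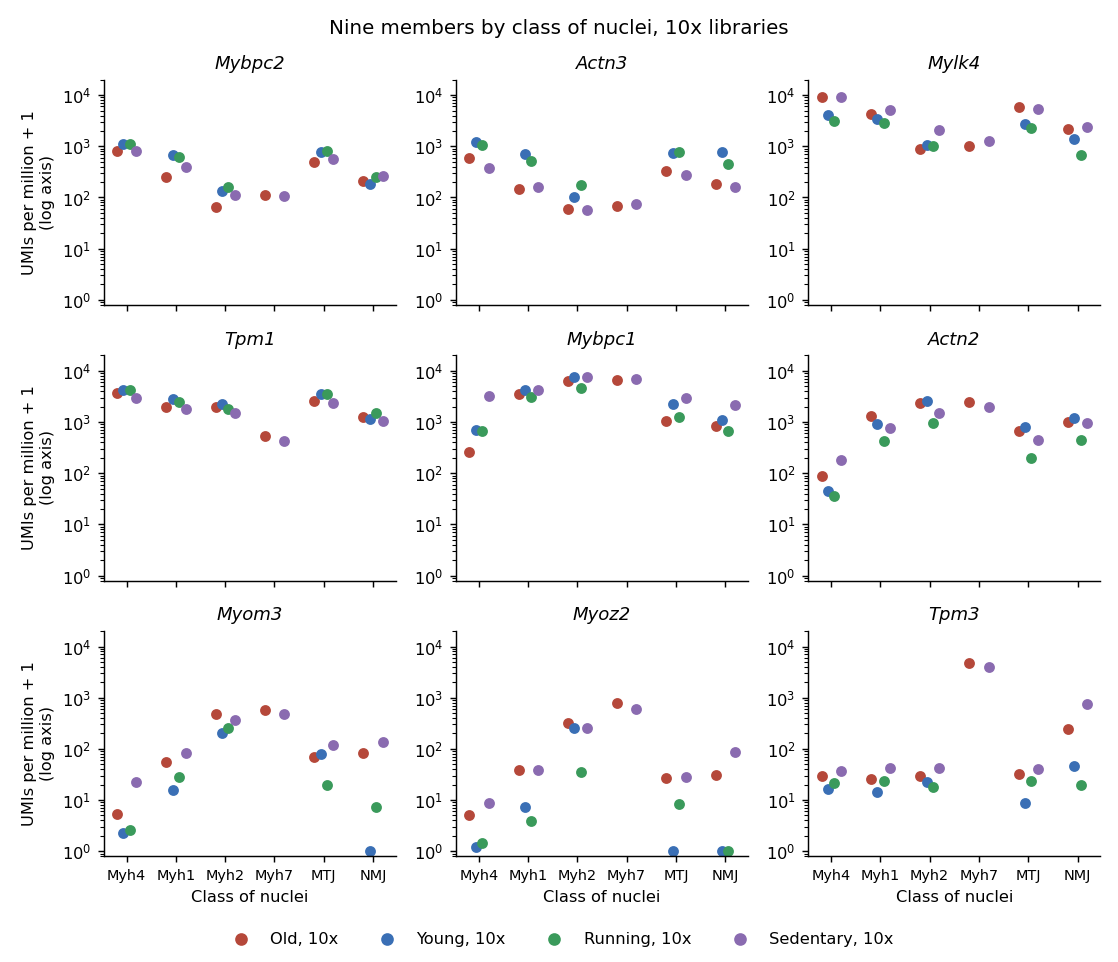
Level of members in Myh4-, Myh1-, Myh2- and Myh7-dominant nuclei and in both junction classes of the 10x libraries, in UPM on a log axis, 1 point per library. Tpm3 stands at 4837 and 4005 in Myh7-dominant nuclei and at most 41.8 in the other heavy chain classes. Mybpc2 and Actn3 fall from Myh4- to Myh2-dominant nuclei.

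The second set held 1 cluster in which Myh7 was highest, with 31 nuclei in Old and 311 in Young, 94 in Running and 66 in Sedentary, chosen after the values had been seen. There Tpm3 read 2949 in Old and 3533 in Young, 3898 in Running and 3525 in Sedentary, against 166 in Old and 174 in Young, 71.7 in Running and 63.5 in Sedentary in the clusters high in neither Myh7 nor Myh2. The 1 myofibre-like cluster in which Myh2 was highest had Tpm3 at 49.8 to 197. Myoz2 read 496 in Old and 616 in Young, 526 in Running and 948 in Sedentary in the cluster highest in Myh7 and 59.9 in Old and 43.6 in Young, 15.0 in Running and 24.2 in Sedentary in the clusters high in neither. The cluster highest in Myh2 lay between, with Myoz2 at 204 to 374. Myom3 read 365 in Old and 523 in Young, 658 in Running and 637 in Sedentary in the cluster highest in Myh7 and 289.8 to 331 in the one highest in Myh2. For all 3 genes the cluster highest in Myh7 was above both in each of the 4 libraries. Whole libraries held different amounts of slow RNA: Myh7 itself read 128 in Old and 1.2 in Young, 4.4 in Running and 255 in Sedentary of the 10x set, and 283, 872, 209 and 113 in the same order in the second set.

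Nuclei at the myotendinous junction, where myofibres attach to tendon, were named from Col22a1, Slc24a2, Adamts20 and Tigd4, and numbered 71 to 303 per 10x library and 27 to 208 in the second set. Xirp2, Ankrd1, Pdlim3 and Nrap were highest there in all 8 libraries (4 of 48, against 0.526% of all genes). In the second set the only classes to compare with were Myh4-dominant and neuromuscular junction nuclei, and in Old replicate 2 Myh4-dominant nuclei alone. Xirp2 read 4466 in Old and 6953 in Young, 1687 in Running and 1959 in Sedentary among 10x libraries and 2458 in Old and 3082 in Young, 1653 in Running and 2106 in Sedentary in the second set, against 1005 to 1464 and 1027 to 1304 in Myh4-dominant nuclei. Pdlim3, which encodes a LIM protein that binds alpha-actinin, read 2017 in Old and 3391 in Young, 981 in Running and 1244 in Sedentary among 10x libraries and 906 in Old and 1334 in Young, 910.4 in Running and 1154 in Sedentary in the second set. Ankrd1 read 118 in Old and 688 in Young, 94.0 in Running and 20.1 in Sedentary among 10x libraries and 129 in Old and 111 in Young, 96.7 in Running and 184 in Sedentary in the second set, against 0.775 to 2.01 and 5.77 to 42.3 in Myh4-dominant nuclei. Only 3 of the 8 libraries had 50 or more Ankrd1 UMIs in this class, with 4 in Old replicate 2 and 8 in Sedentary replicate 1, so its place there rests on few molecules. Nrap, the nebulin-related anchoring protein gene, read 1821 in Old and 3144 in Young, 867 in Running and 1428 in Sedentary and then 615 in Old and 839 in Young, 643 in Running and 626 in Sedentary in the 2 sets. Young was highest of the 10x libraries for all 4 genes, from 71 nuclei. Flnc, the filamin C gene, and Xirp1 were not highest in every library, although Flnc read 953 in Old and 1024 in Young, 292 in Running and 304 in Sedentary in the 10x set, against 82.2 to 254 in Myh4-dominant nuclei.

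**Figure D4:**
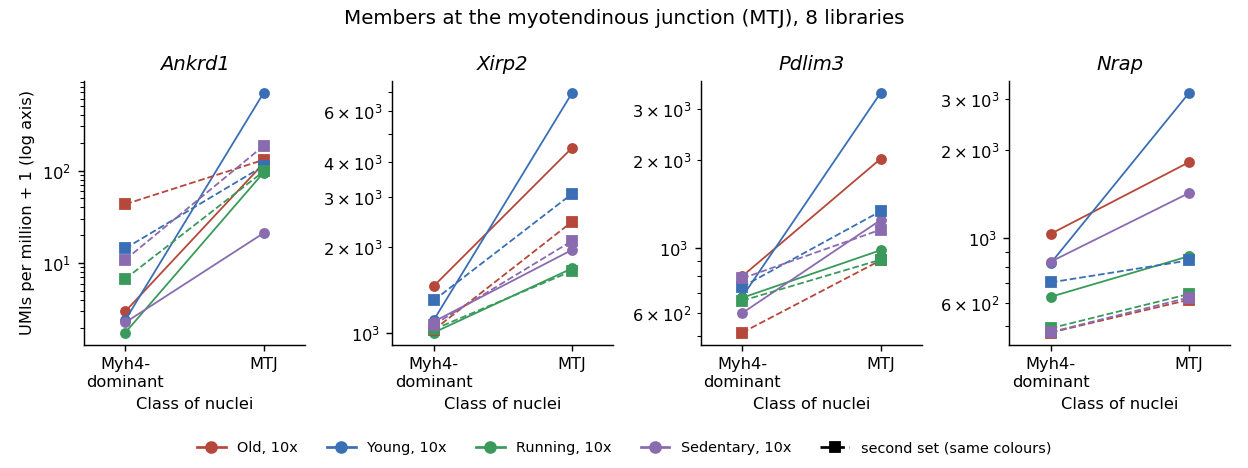
Level of Ankrd1, Xirp2, Pdlim3 and Nrap in Myh4-dominant and myotendinous junction nuclei, in UPM on a log axis, 1 line per library. Xirp2 lies at 1687 to 6953 in 10x myotendinous nuclei and at 1005 to 1464 in 10x Myh4-dominant nuclei.

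Neuromuscular junction nuclei numbered 25 to 68 per 10x library and 46 to 61 in 3 second-set libraries, with too few in Old replicate 2 (17). No member was highest there in all 7 libraries (1.32% of all genes), and Neb, Ankrd23, Myot, Ldb3 and Nrap were lowest in all 7 (5 of 48, against 0.469% of all genes). The 3 members with the largest ratio to the other classes were Actn2, Capn3 and Des, of which Capn3 reached 50 UMIs in 3 libraries and Des in 4. Des read 568 in Old and 241 in Young, 329 in Running and 211 in Sedentary among 10x libraries and 754 in Young, 653 in Running and 640.2 in Sedentary in the second set, against 173 to 264 and 357 to 505 in Myh4-dominant nuclei. Actn2 read 993 in Old and 1194 in Young, 440.4 in Running and 970.3 in Sedentary and then 1238 in Young, 1167 in Running and 960.4 in Sedentary in the 2 sets. Capn3, whose protease binds titin, read 311 in Old and 505 in Young, 254 in Running and 398 in Sedentary and then 462 in Young, 424 in Running and 335 in Sedentary. Tpm3 in 10x Sedentary neuromuscular nuclei was 759, above the other libraries of that class. Actc1, Nebl, Lmod2, Ankrd1, Csrp3 and Xirp1 had too few UMIs in these sums to be tested.

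Outside myofibres the 48 genes were also read, at a level that differed between library sets. The median ratio of a member to its myofibre-like level was 0.10 to 0.16 in fibro-adipogenic progenitors of the 10x libraries and 0.64 to 0.75 in those of the second set, where 4.24% to 5.11% of their UMIs came from the 48 genes, against 0.83% to 1.35% in the 10x set. In the 10x set it was 0.21 to 0.48 in endothelial nuclei and 0.18 to 0.35 in macrophages. Myofibre markers outside the 48 genes were also read in the progenitor clusters. They stood at 0.83 of the level over the whole set in the second set and at 0.14 to 0.19 in the 10x set. Whether such RNA came from the named nuclei themselves was not tested. Tpm3 was above its myofibre-like level in lymphatic endothelial nuclei and T cells of every 10x library with at least 20 of them, and Nebl in 8 classes. Nebl read 104 in Old and 95.4 in Young, 109 in Running and 217 in Sedentary in endothelial nuclei and 51.8 in Old and 69.0 in Young, 82.8 in Running and 52.5 in Sedentary in muscle stem cells, against 0.949 to 2.47 in myofibre-like nuclei. In T cells, which reached 20 nuclei in 3 libraries, it read 522 in Old, 263 in Young and 816 in Running. Old replicate 2, most of whose nuclei were unnamed, had the highest library level of Nebl, 115. Pdlim5, a LIM protein gene of wide use, read 611 in Old and 587 in Young, 606 in Running and 715 in Sedentary in macrophages and 631 in Old and 438 in Young, 560.4 in Running and 788 in Sedentary in myofibre-like nuclei, which overlapped. Tmod1 in macrophages was 177 in Old and 118 in Young, 195 in Running and 172 in Sedentary, above its 17.4 to 34.4 in fibro-adipogenic progenitors.

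**Figure D5:**
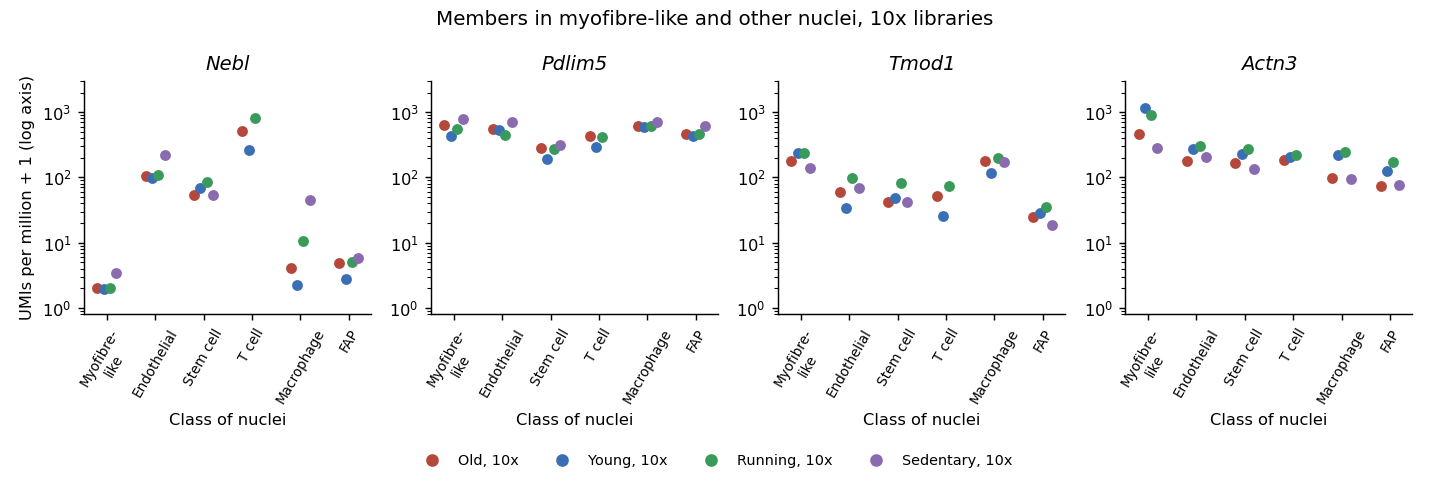
Level of Nebl, Pdlim5, Tmod1 and Actn3 in 10x nuclei, in UPM on a log axis, 1 point per library. Classes are myofibre-like nuclei, endothelial nuclei, muscle stem cells, T cells, macrophages and fibro-adipogenic progenitors. Nebl lies above its myofibre-like level in each of the other classes, in every library plotted.

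Old and Young muscle were compared to ask how these genes differ with age. Over whole libraries 41 of the 48 had a lower fitted value in Old and 7 a higher one, and none passed the test, as for all 20325 genes tested (0% called, smallest adjusted p = 0.69, edgeR's quasi-likelihood test with Benjamini-Hochberg adjustment, n = 2 libraries per group). At an unadjusted p under 0.05, 12 of the 48 (25.0%) were lower and none higher, against 2.74% of all genes in both directions. The median log2 difference was -0.86 over the 48 and 0.19 over all genes. In both library sets 29 of 48 (60.4%) were lower in Old, against 26.6% of all genes, and the median was -0.35 among 10x libraries and -1.58 in the second set, whose Old library stood apart. Without Old replicate 2 the median was -0.32, and without Old replicate 1 it was -1.63. Sedentary replicate 1 enters the estimate of the spread, and without it the log2 difference of Actc1 was -2.67. The test had limited reach, since of 50 genes simulated with an 8-fold change it recovered 10, and of 50 with a 4-fold change it recovered 0.

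Among myofibre-like nuclei 35 of the 48 had a lower fitted value in Old and 13 a higher one, and again none was called (0% of 18532 genes, smallest adjusted p = 0.90). At an unadjusted p under 0.05, 9 of the 48 were lower, against 3.93% of all genes in both directions. The median was -0.45, against 0.11 over all genes (-0.23 against 0.34 with no scaling factor, and -0.20 without Old replicate 2), and 27 of 48 were lower in both sets, against 25.5% of all genes. In Myh4-dominant nuclei, where 0% of 17558 genes were called, it was -0.49 against 0.03, and 29 of 48 were lower in both sets, against 29.6% of all genes. There 8 of the 48 had an unadjusted p under 0.05, against 4.48% of all genes. The class held different clusters in Old and Young: the largest share of Old replicate 1 (43.5%) lay in a cluster led by Ostn and Igfn1 and that of Young replicate 1 (49.0%) in one led by F830016B08Rik and Mstn, while 81.0% of Old replicate 2 lay in a cluster led by Igfn1 and Ctf2 and 32.1% of Young replicate 2 in one led by 2310016D03Rik and Agbl1. The part of this makeup in the differences was not tested. Of 50 genes simulated in the myofibre-like sums at each size of change, 26 with an 8-fold and 4 with a 4-fold change were recovered. They too were drawn from all genes tested, with 1 shared spread.

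The 3 members with the lowest p and the same direction in both sets were Lmod3, Trim55 and Mybph in whole libraries and Trim55, Lmod3 and Tpm2 in myofibre-like nuclei. Trim55, which encodes a titin-bound ubiquitin ligase (MuRF2), read 143 in Old and 262 in Young, 220.4 in Running and 178 in Sedentary among 10x libraries and 93.2 in Old and 209.6 in Young, 180.1 in Running and 214 in Sedentary in the second set. Old was lowest in both sets, with a log2 difference in myofibre-like nuclei of -1.07 (SE 0.27, adjusted p = 0.90), of which -1.04 among 10x libraries and -1.10 in the second. Lmod3, which nucleates actin filaments, read 23.6 in Old and 36.6 in Young, 29.1 in Running and 32.3 in Sedentary among 10x libraries and 56.9 in Old and 131 in Young, 58.7 in Running and 49.7 in Sedentary in the second, with a library log2 difference of -1.36 (SE 0.40, adjusted p = 0.69). Mybph, a relative of myosin-binding protein C, read 16.7 in Old and 66.4 in Young, 83.3 in Running and 25.6 in Sedentary among 10x libraries and 29.3 in Old and 58.4 in Young, 174 in Running and 139 in Sedentary in the second, with a library log2 difference of -1.99 (SE 0.65). Old was lowest of all libraries for Mybph in each set. Tpm2 had a myofibre-like log2 difference of -1.01 (SE 0.33). Mybph came to -1.03 without Young replicate 1, Lmod3 to -0.91 without Young replicate 2, and Tpm2 to -0.62 in myofibre-like nuclei without Young replicate 2. Over all libraries left out in turn, the library difference of Mybph lay between -2.63 and -1.03 and the myofibre-like one of Trim55 between -1.41 and -0.91. Some members high in Myh7- or Myh2-dominant nuclei went in opposite directions between sets. Tpm3, Myoz2, Myom3, Ankrd2, Lmod2, Csrp3, Actn2 and Pdlim5 were higher in Old among 10x libraries and lower in the second, as was Myh7 itself. Others highest in Myh7-dominant nuclei did not, since Acta1, Tpm2, Lmod3 and Trim55 were lower in Old in both sets. Ankrd2 had a myofibre-like log2 difference of 5.62 among 10x libraries and -0.51 in the second. The part of the Myh7 RNA in these differences was not tested.

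Running and Sedentary muscle were compared to ask how the same genes differ after treadmill training. Over whole libraries 29 of the 48 had a higher fitted value in Running and 19 a lower one, and none was called (0% of 20325 genes, smallest adjusted p = 1.0). At an unadjusted p under 0.05, 2 of the 48 were higher, against 0.482% of all genes in both directions. The median log2 difference was 0.05, against -0.04 over all genes, and 17 of 48 were higher in both sets, against 26.5% of all genes. Without Sedentary replicate 1 the median was -0.18, without Running replicate 2 it was -0.11, and without Sedentary replicate 2 it was 0.52. Among myofibre-like nuclei none was called (0% of 18532), the median was 0.07 against -0.02, and 3 of the 48 had an unadjusted p under 0.05, against 0.971% of all genes. In Myh4-dominant nuclei, with 0% of 17558 genes called, the median was 0.04 against -0.02, and 6 of the 48 had an unadjusted p under 0.05, against 1.14% of all genes.

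The members with the lowest p and the same direction in both sets were Ankrd23, Acta1 and Tpm2 at both levels. Ankrd23, which encodes a titin-bound ankyrin repeat protein, read 154 in Old and 174 in Young, 576 in Running and 63.4 in Sedentary among 10x libraries and 352 in Old and 575 in Young, 309.6 in Running and 219.8 in Sedentary in the second set. Its library log2 difference was 2.02 (SE 0.68, adjusted p = 1.0), of which 3.26 among 10x libraries and 0.46 in the second. Young was the highest second-set library, so Running did not stand above all other groups there. For Acta1 the library log2 difference was 1.45 (SE 0.59), with 2.40 among 10x libraries and 0.80 in the second. Running was the highest library for Acta1 in each set. Tpm2 read 146 in Old and 222 in Young, 367 in Running and 155 in Sedentary among 10x libraries and 323 in Old and 882 in Young, 317 in Running and 206 in Sedentary in the second set, with a library log2 difference of 1.02 (SE 0.50). Ankrd23 and Acta1 were lowest of all libraries in Sedentary replicate 1, of whose Myh4-dominant nuclei 43.0% lay in a cluster found almost only there, and the part of that cluster was not tested. Without Sedentary replicate 1 the Ankrd23 log2 difference was 1.29, that of Acta1 0.70 and that of Tpm2 1.13. Without Running replicate 1 they were 0.68, 1.29 and 0.31. Over all libraries left out in turn Ankrd23 lay between 0.68 and 2.98, Acta1 between 0.70 and 2.53 and Tpm2 between 0.31 and 1.54.

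In junction nuclei the sums were small. At the myotendinous junction 45 of the 48 genes were tested, Actc1, Nebl and Myoz2 having too few UMIs, and none was called in either comparison (0% of 5453 genes). In Old against Young 38 were lower and 7 higher, with a median log2 difference of -0.63 against -0.06 over all genes, and 10 had an unadjusted p under 0.05, against 3.48% of all genes. Running against Sedentary gave 11 with an unadjusted p under 0.05, against 3.47% of all genes, with Mybph (1.77, SE 0.52, adjusted p = 0.72 by edgeR) and Tpm2 (1.39, SE 0.42, adjusted p = 0.79) lowest in p. At the neuromuscular junction Running and Sedentary alone could be compared, 42 members were tested and none was called, while 1 of 3849 genes was (0.026%), and 9 members had an unadjusted p under 0.05, against 4.6% of all genes.

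Lists of related genes were read over whole libraries. Other sarcomere and Z-disc genes, a list of further troponin, myosin and Z-disc genes, had none called of 38 tested in either comparison, with 31 lower in Old and a median of -0.64, and with 24 higher in Running and a median of 0.07. The transcription factors SRF, MRTF, MEF2 and TEAD, which are known regulators of muscle promoters, had none called of 9 tested, with 7 lower in Old and 7 lower in Running.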

How the data were processed

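Nuclei of mouse gastrocnemius were isolated and sequenced in 8 libraries. The deposited matrices hold raw counts of UMIs for each gene in each nucleus that passed the authors' filter. Their processing notes name Cell Ranger 6.1.2, Seurat 4.1.1 and mm10, and give no word on intronic reads. The study's own limits on nuclei were applied to these counts (over 200 and under 6000 genes, under 6% mitochondrial). Doublets were kept, since Scrublet marked under 0.03% of nuclei in 5 libraries. Genes of mitochondria (12) and ribosomal proteins (82) were not used.

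Each library set was clustered alone with scanpy 1.11.5 (2000 variable genes without the 48, 30 components, 20 neighbours, resolution 1.0), and clusters were named from marker lists. The naming limits were chosen with the clusters in view, and the 10x cluster led by Prlr was left unnamed by choice. A class needed 20 nuclei in a library. UMIs were summed per library and class and fitted by edgeR 4.0.16 (R 4.3.3) with its quasi-likelihood F-test. Scaling was by TMM, low genes were dropped by filterByExpr, and p-values were adjusted over all genes after Benjamini and Hochberg, with a threshold of 0.05. Terms were the 4 groups and the library set, which left 3 residual degrees of freedom (2 at the neuromuscular junction, where 7 libraries entered). The fit was tested on simulated data. Levels printed are plain UPM, while fitted differences use the TMM factors of each fit. For whole libraries these were 1.48 in Old replicate 2 and 0.877 to 1.02 in the other libraries. For myofibre-like sums they were 1.25 in Old replicate 2 and 0.776 to 1.15 in the others. For Myh4-dominant sums they were 1.34 in Old replicate 2 and 0.773 to 1.13 in the others.

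The 48 genes and all lists were chosen with earlier results of these data known. Members named with every library's value are those with most UMIs in a role, the 3 with the lowest p and one direction in both sets per comparison, and the 3 with the largest ratio per class. Other named members were chosen after their values were seen. Coordinates are on GRCm38, and promoters come from RefSeq on GRCm38.p6. Alternatives tried were RLE scaling, DESeq2 1.42.0, all genes, a fit with no set term, the 4 libraries of a comparison alone, other handling of nuclei and clusters, and each library left out.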

Additional observations from a re-analysis of the deposited data

How the results depend on the processing

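No member was called in either comparison, so no called value could change sign, while the Running against Sedentary medians did. The library set, with 1 library of each group, is the block of every fit; without that term no gene was called in library, myofibre-like or Myh4-dominant sums, as with it. Fitting only the 4 libraries of a comparison, with 1 residual degree of freedom, called 4 genes in Old against Young and 82 in Running against Sedentary over libraries, 6 of them members (Acta1, Actc1, Actn3 and Ankrd23 higher, Myom3 and Myoz2 lower), and 1 gene in Old against Young in myofibre-like nuclei. DESeq2 called 3 genes in Old against Young in myofibre-like and 17 in Myh4-dominant nuclei, none a member. The median over members in Running against Sedentary Myh4-dominant nuclei (0.04) was 0.0084 with RLE scaling, 0.009 with DESeq2, 0.0612 with no filter, 0.12 with no library set term, 0.0670 with the 4 libraries alone, 0.0583 without likely doublets, 0.0834 at resolution 0.5 and 0.0631 with the heavy chain called per nucleus.

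Leaving out 1 library at a time gave, over libraries, 0 to 8 genes called in Old against Young with 0 to 1 member (Actc1, without Sedentary replicate 1) and 0 to 427 genes in Running against Sedentary with 0 to 6 members, the highest without Sedentary replicate 2 (Actc1, Ankrd23, Csrp3, Myom3, Myoz2 and Tpm3). The member medians ranged from -1.63 to -0.32 and from -0.18 to 0.52. In myofibre-like nuclei 0 to 3 and 0 to 6 genes were called, with medians from -0.96 to -0.20 and from -0.15 to 0.39. In Myh4-dominant nuclei 0 to 2 and 0 to 18 genes were called, with 0 to 2 members in Running against Sedentary (Acta1 and Myom3, without Sedentary replicate 2) and medians from -0.93 to -0.32 and from -0.15 to 0.37. The Old against Young medians were least negative without Old replicate 2. With no scaling factor, chosen after seeing the data, the Old against Young library median was -0.49, where that of all genes was 0.61, and the myofibre-like one was -0.23, where that of all genes was 0.34. The cause of these changes was not tested.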
